A study of Mus musculus with 3 samples.

Results

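Tissue factor and 9 other genes grouped with it as coagulation regulators were examined in KPC78 cells, a line of mouse pancreatic ductal adenocarcinoma. The 10 members were chosen by gene symbol (F3, Tfpi, Tfpi2, Thbd, Procr, Podxl, Pdpn, F2r, F2rl1 and F13a1), and all 10 were found among the 35764 symbols of the deposited expression table. The series held 1 group of 3 libraries of polyadenylated RNA from KPC78 cells, with the genotype given as WT, no treatment and no other cell line, and it was made to measure integrin subunits. The labels do not give the alleles behind the line, and the replicates are called biological without saying how the cultures were separated, so errors here measure the spread between these 3 libraries. With no second group, levels were compared between genes inside each library. Values are TPM, a share of all transcripts that is corrected for transcript length, and detected means at least 1 TPM in all 3 libraries.

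Tissue factor, the product of F3, is a membrane receptor for coagulation factor VII, and the complex of both starts clotting by activating factor X. Tissue factor pathway inhibitor, from Tfpi, shuts this complex down, while thrombomodulin (Thbd) and the endothelial protein C receptor (Procr) turn thrombin toward activating the anticoagulant protein C. Thrombin and the tissue factor complex also cleave protease-activated receptors, G protein-coupled receptors such as those from F2r and F2rl1. Pancreatic cancer is known for a high rate of venous thrombosis in patients, and tumour cells are a recognised source of tissue factor.

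KPC78 cells expressed tissue factor, its inhibitor and both protease-activated receptors among the members, while thrombomodulin, podoplanin, the factor XIII A chain and the second inhibitor stood below 1 TPM. By mean level the order was F2r, Podxl, F3, Tfpi, Procr, F2rl1, Thbd, F13a1, Pdpn and Tfpi2. Of the 10 members 6 were detected, or 60.0%. Over all symbols 32.6% were detected, and over the 19527 symbols annotated as protein-coding 55.4% were, so the share of the members lay near that of protein-coding genes. The lowest value of any detected member was 33.0 TPM and the highest value of any other member 0.548 TPM, with none between. Their median of mean TPM was 37.2, against 0.0337 over all symbols and 4.03 over protein-coding symbols. The 10 members together summed to between 533 and 578 TPM per library.

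**Figure D1:**
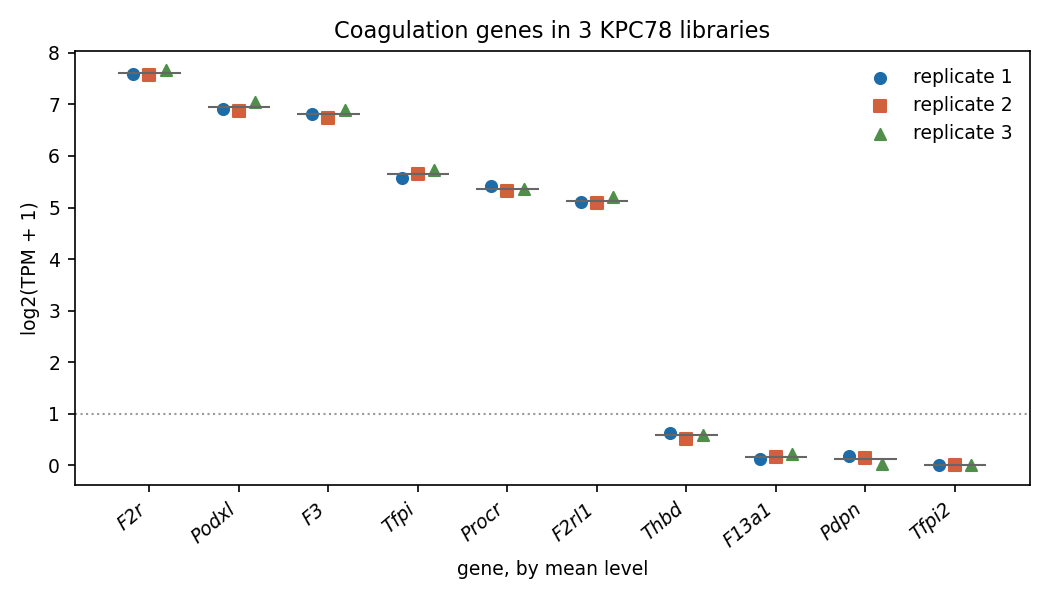
Levels of the 10 members, as log2(TPM + 1), in each of 3 KPC78 libraries (symbols), with the level of the mean TPM as a line and the detection level of 1 TPM dotted. F2r, Podxl, F3, Tfpi, Procr and F2rl1 sit far above the dotted line and Thbd, F13a1, Pdpn and Tfpi2 below it in every library.

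The libraries summed to between 999728 and 999776 TPM, and 11938 to 12078 genes per library reached 1 TPM. Read depth cannot be recovered from TPM, so no counting interval is given. Replicate 2 stood apart in that long transcripts were relatively low in it: Spearman's rho between length and its deviation from the other libraries was -0.49 over 8093 genes, while replicates 1 and 3 gave 0.24 and 0.38. The 3 deviations of a gene are not independent of each other. Of the 6 detected members 5 had their lowest value in replicate 2, all but Tfpi, and 5 their highest in replicate 3, all but Procr. The same counts were not made over all detected genes, so they are not read as particular to the members. The part of length in these small differences was not tested. The cell type label was compared with marker genes. Of 7 pancreatic duct epithelial markers 6 were detected, led by Krt18 at 1472 ± 31.0 TPM and Krt19 at 904 ± 65.4 TPM (SD, n = 3), and the epithelial surface marker Epcam stood at 0.165 ± 0.0532 TPM (SD, n = 3).

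F3 had 111, 106 and 117 TPM in replicates 1, 2 and 3, with a mean of 111 ± 5.95 TPM (SD, n = 3). Replicate 3 was the highest and replicate 2 the lowest, and the coefficient of variation was 5.34%, close to the median of 5.29% over 8502 genes averaging 10 TPM or more. F3 ranked 1305 among all symbols in the mean, and 11.2% of the detected genes were higher. The genes with the most similar levels over the 3 libraries were Psmd3, a proteasome subunit, Serinc3, a membrane protein gene, and Atp6ap1, an accessory subunit of the proton pump of acidic organelles. Their mean absolute differences from F3 in log2(TPM + 1) were 0.016, 0.018 and 0.018 among 11664 genes compared. The F3 gene (ENSMUSG00000028128.13) lies on the plus strand of chromosome 3 from 121723537 to 121735048 (GRCm38, GENCODE M21), with 2 protein-coding transcripts whose longest has 1872 bases. The table gives 1 value per gene, so spliced forms of tissue factor are not separated.

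The F3 promoter is shown because this gene heads the pathway, beside those of F2r, the highest member, and Tfpi2, which was listed at 0. The sequences are the 250 bases before the annotated start on GRCm38.p6, from RefSeq, read 5′ to 3′ on the strand of the gene, with matches to the AP-1 motif TGANTCA in capitals. This motif is its own reverse complement, so a match covers both strands. Windows were held for 7 of the 10 members, 11 windows in all, and Tfpi2 has 3 of them, of which the one with most CpG dinucleotides is printed.
F3, chr3:121723287-121723536, plus strand: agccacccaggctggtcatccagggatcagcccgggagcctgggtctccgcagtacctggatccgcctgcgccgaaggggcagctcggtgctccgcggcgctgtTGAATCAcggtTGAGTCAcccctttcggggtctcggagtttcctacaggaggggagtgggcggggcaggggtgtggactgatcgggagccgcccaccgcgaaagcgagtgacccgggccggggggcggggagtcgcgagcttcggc
F2r, chr13:95618467-95618716, minus strand: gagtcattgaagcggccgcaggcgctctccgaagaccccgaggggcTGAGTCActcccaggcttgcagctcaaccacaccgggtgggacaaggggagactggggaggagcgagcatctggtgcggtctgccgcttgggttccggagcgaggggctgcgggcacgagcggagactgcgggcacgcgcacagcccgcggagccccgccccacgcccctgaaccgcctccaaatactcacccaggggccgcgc
Tfpi2, chr6:3968376-3968625, minus strand: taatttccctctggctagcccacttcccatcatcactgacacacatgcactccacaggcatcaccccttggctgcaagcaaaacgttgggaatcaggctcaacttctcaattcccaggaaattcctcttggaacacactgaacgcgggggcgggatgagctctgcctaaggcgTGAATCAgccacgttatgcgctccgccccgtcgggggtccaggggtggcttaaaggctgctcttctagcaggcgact
The F3 window held 2 matches, whose first bases lay 146 and 135 bases before the start. AP-1 sites in the F3 promoter are known from work on the human gene. The F2r window held 1 match and the printed Tfpi2 window 1. Of the 11 member windows 4 held a match, the fourth that of Procr, and none was found in the windows of Tfpi, Pdpn and F13a1 or in the other Tfpi2 windows. Of all 32851 windows 6.75% held at least 1 match and 0.338% held 2 or more. The F3 and F2r windows each had 24 CpG dinucleotides, more than 88.0% of all windows, and the printed Tfpi2 window had 11, more than 64.4% of them. The other Tfpi2 windows had 2 and 1 CpG dinucleotides. A match describes letters only and was not tied to binding or to expression.

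The inhibitors differed widely from each other. Tfpi, a Kunitz-type inhibitor of factor Xa and of the tissue factor complex, had 46.3, 49.2 and 51.8 TPM in replicates 1, 2 and 3, with a mean of 49.1 ± 2.75 TPM (SD, n = 3). Every library had less Tfpi than F3, and the ranges did not overlap. Tfpi stood at 0.441 ± 0.0249 of the F3 level in TPM (SD, n = 3), and its log2 ratio to F3 on the log2(TPM + 1) scale was -1.17 (standard error 0.054; adjusted p = 1.23e-06, limma fitted over all genes). Of the 12013 genes tested against F3 in this way 97.6% passed, 9.62% as higher and 88% as lower, so a passing test is the usual outcome here, and 5 of the 5 tested members passed. Tfpi has 8 annotated protein-coding transcripts, which encode secreted and membrane-bound forms, and the gene-level value does not separate them. Tfpi2, a related inhibitor of plasmin and other serine proteases that is known to be silenced by promoter methylation in human cancers, was listed at 0 in all 3 libraries. It was not tested, and no fold is given here, because a ratio with a gene listed at 0 follows the pseudocount.

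The receptors of the protein C pathway were uneven. Procr, which presents protein C for activation on endothelium and also marks some stem-like cells, had 41.6, 38.8 and 40.2 TPM in replicates 1, 2 and 3, with a mean of 40.2 ± 1.43 TPM (SD, n = 3). Thbd, the thrombin-binding partner in the same reaction, had 0.548, 0.430 and 0.503 TPM, with a mean of 0.494 ± 0.0598 TPM (SD, n = 3). No library of Procr came near any of Thbd, and the TPM ratio of Procr to Thbd was 76.0, 90.2 and 79.9 in the 3 libraries. The log2 ratio on the log2(TPM + 1) scale was 4.79 (standard error 0.039; adjusted p = 4.07e-09, limma), in a comparison that 99.4% of genes passed. This ratio depends on the pseudocount because Thbd is near 0, with 6.09 at a pseudocount of 0.1 TPM and 3.04 at 5 TPM. Procr stood at 0.361 ± 0.0167 of the F3 level (SD, n = 3; log2 ratio -1.45, standard error 0.051, adjusted p = 3.20e-07, limma). Thbd ranked 12898 among all symbols.

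Both protease-activated receptors among the members were detected. F2r, which encodes the main thrombin receptor of many cell types, had 191, 190 and 201 TPM in replicates 1, 2 and 3, with a mean of 194 ± 6.02 TPM (SD, n = 3). It was the highest member in every library, and 5.89% of the detected genes were higher. F2rl1, the receptor cleaved by trypsin-like proteases and by the tissue factor complex, had 33.4, 33.0 and 36.0 TPM, with a mean of 34.1 ± 1.62 TPM (SD, n = 3). F2rl1 stood at 0.174, 0.174 and 0.179 of the F2r level in the 3 libraries, or 0.176 ± 0.00284 (SD, n = 3). Its log2 ratio to F2r was -2.48 (standard error 0.044; adjusted p = 2.67e-08, limma), in a comparison that 98.9% of genes passed. Against F3, F2r stood at 1.74 ± 0.0482 (SD, n = 3) with a log2 ratio of 0.80 (standard error 0.048; adjusted p = 5.26e-06, limma). F2rl1 stood at 0.306 ± 0.00627 of F3 (SD, n = 3) with a log2 ratio of -1.68 (standard error 0.047; adjusted p = 1.00e-07, limma).

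The receptor genes are neighbours on the minus strand of chromosome 13 (GRCm38, GENCODE M21). F2rl1 spans 95511732 to 95525227 and F2r spans 95601803 to 95618487, with 76575 bases and no protein-coding gene lying wholly between them. The other members of the receptor family, F2rl2 and F2rl3, were below 1 TPM. F2rl2 had 0.103, 0.0571 and 0.0785 TPM, and F2rl3 was listed at 0 in replicate 2 and at a mean of 0.0192 TPM. Of 8 genes for the G proteins and arrestins that these receptors use all 8 were detected, with a median of mean TPM of 50.5. The highest were Gnai2 at 304 ± 5.05 TPM, Gnai3 at 107 ± 3.90 TPM and Arrb2 at 55.9 ± 2.84 TPM (SD, n = 3). Of 9 proteases listed for the receptor from F2rl1 only Prss2 was detected, with 7.77 ± 0.484 TPM (SD, n = 3). Direct cleavage of this receptor is not established for every gene of that list, Klk10 and Prss8 among them. Prss2 belongs to a family of near-identical trypsin genes whose reads the authors' counting could split, so its value is uncertain. Tmprss2 and Klk10 followed at 0.636 ± 0.0800 and 0.562 ± 0.254 TPM (SD, n = 3), and 4 of the 9 were listed at 0 in every library.

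The sialomucins lay far apart in level. Podxl, which encodes podocalyxin, a negatively charged surface protein of podocytes, vascular endothelium and some carcinomas, had 120, 116 and 131 TPM in replicates 1, 2 and 3, with a mean of 122 ± 7.86 TPM (SD, n = 3). Pdpn, which encodes podoplanin, the ligand of a platelet receptor, had 0.139, 0.0995 and 0.0223 TPM. The Pdpn values differ several times between libraries, with replicate 3 the lowest, and all lie near 0, so no test was made. Podxl and F3 were close. Their ranges overlapped, while Podxl was the higher of the pair in 3 of 3 libraries, at 1.08, 1.10 and 1.12 of the F3 level. The log2 ratio of Podxl to F3 was 0.13, and its 95% confidence interval ran between 0.02 and 0.25 (adjusted p = 0.0311, limma). This call is lost without any 1 of the replicates (adjusted p of 0.101 without replicate 1 and 0.094 without replicate 2 or replicate 3) and when genes with low values are kept in the fit (adjusted p = 0.101).

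**Figure D2:**
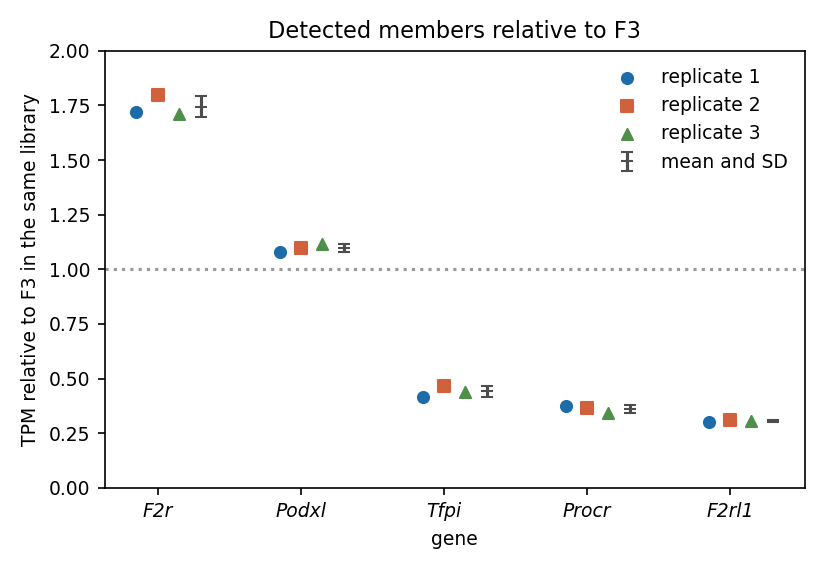
TPM of the 5 other detected members divided by the TPM of F3 in the same library (vertical axis, linear from 0), with symbols for the 3 replicates and a bar for the mean and SD beside them; the dotted line marks the level of F3. F2r and Podxl lie above F3 in every library, while Tfpi, Procr and F2rl1 lie below 0.5 of it.

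Between the remaining neighbours in the order, the ratios were described without a test. F2r was 1.59 ± 0.0532 times Podxl, Tfpi 1.22 ± 0.0964 times Procr and Procr 1.18 ± 0.0647 times F2rl1 in TPM (SD, n = 3). The upper gene of each of these pairs was higher in 3 of 3 libraries, and the ranges did not overlap. F13a1 and Pdpn could not be ordered, since their ranges overlapped and F13a1 was higher in 2 of 3 libraries. F13a1, which encodes the chain of factor XIII that crosslinks fibrin, had 0.0838, 0.123 and 0.162 TPM in replicates 1, 2 and 3. Among 7 other transglutaminase genes Tgm2, the tissue transglutaminase, was the only one detected, with 130 ± 5.75 TPM (SD, n = 3), while Tgm5 and Tgm1 stood at 0.198 ± 0.0913 and 0.101 ± 0.0747 TPM.

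**Figure D3:**
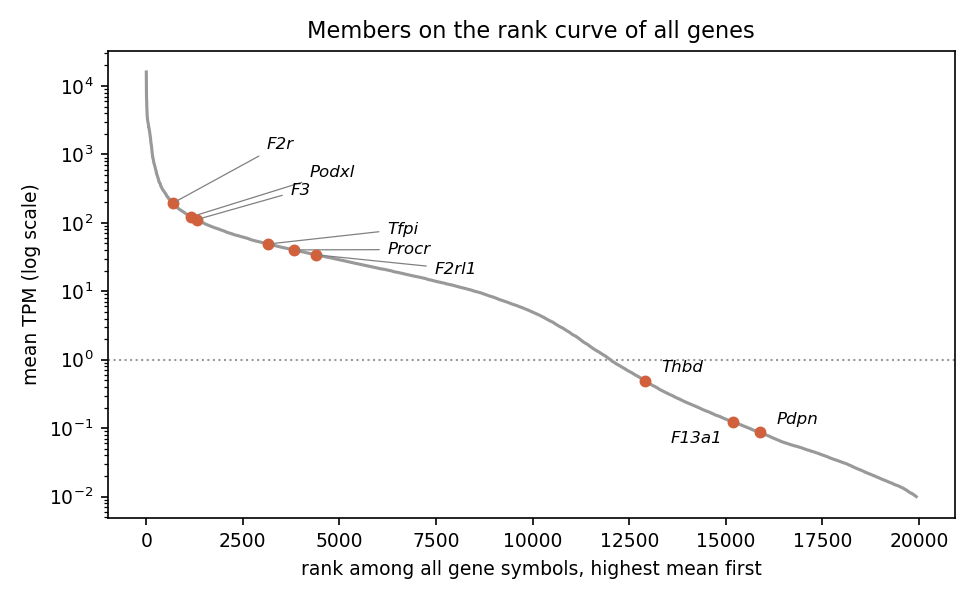
Mean TPM over 3 libraries of every gene with at least 0.01 TPM (grey curve, log scale) by rank among all symbols, with 9 members as points and the detection level of 1 TPM dotted; Tfpi2, listed at 0, is not drawn. F2r, Podxl and F3 lie on the steep upper part of the curve, and Thbd, F13a1 and Pdpn lie past the point where the curve crosses 1 TPM.

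The genes for soluble clotting factors and their cofactors were mostly below 1 TPM. Many of these proteins, such as factor VII and fibrinogen, are made mainly by the liver. Of 15 genes for plasma proteases, cofactors and substrates 1 was detected, F8, with 1.80, 1.45 and 1.86 TPM. Vwf stood at 0.547 ± 0.167 TPM and Kng1 at 0.187 ± 0.0667 TPM (SD, n = 3), and 8 of the 15 were listed at 0 in every library, among them F7, the ligand of tissue factor, and the fibrinogen genes Fga, Fgb and Fgg. The median of mean TPM in this list was 0, and all 15 genes together reached at most 2.80 TPM in a library. The list of plasma anticoagulants held 8 genes, among them Gas6, which is not an established anticoagulant. Only Pros1 was detected in it, with 19.0, 19.3 and 20.8 TPM. Pros1 is the gene of protein S, a cofactor of activated protein C and of tissue factor pathway inhibitor. At a detection level of 0.5 TPM 2 of the 8 were detected, with Serpinc1 added. Serpinc1, the gene of antithrombin, had 0.779 ± 0.173 TPM and Gas6 0.257 ± 0.0572 TPM (SD, n = 3).

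The intracellular and membrane genes around the members were mostly detected. The vitamin K cycle and the export machinery of clotting factors were detected for 6 of 6 genes, led by the cargo receptor pair Lman1 at 87.6 ± 1.40 TPM and Mcfd2 at 81.2 ± 2.77 TPM, with Vkorc1, the target of warfarin, at 62.8 ± 2.90 TPM (SD, n = 3). Exposed phosphatidylserine is the surface on which the tissue factor complex works, and 9 of 10 genes for its exposure and uptake were detected. The highest were Anxa5 at 694 ± 16.8 TPM, Mfge8 at 182 ± 5.67 TPM, both binders of the exposed lipid, and Tmem30a, the chaperone of the flippases, at 92.0 ± 4.92 TPM (SD, n = 3). Of 9 known partners of tissue factor all 9 were detected, led by P4hb, a protein disulfide isomerase, at 670 ± 11.5 TPM, Itgb1 at 399 ± 12.4 TPM and Cav1 at 291 ± 10.1 TPM (SD, n = 3). Each of these shares stood above the 55.4% of protein-coding symbols, and no test of the lists was made.

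In the list of plasminogen activation and its inhibitors 8 of 12 genes were detected, with a median of mean TPM of 4.67. Anxa2 and S100a10, which form a surface receptor for plasminogen and its activator, led with 2696 ± 91.8 and 716 ± 33.9 TPM, followed by Plat, the tissue plasminogen activator, at 70.6 ± 2.66 TPM (SD, n = 3). Among partners of podoplanin and podocalyxin 8 of 9 were detected, with Cd9 at 1282 ± 34.2 TPM, Cd44 at 390.1 ± 11.9 TPM and Ezr, which links podocalyxin to actin, at 388 ± 9.91 TPM (SD, n = 3). The exception was Clec1b, the platelet receptor of podoplanin, listed at 0 in every library. Of 7 heparan sulfate 3-O-sulfotransferases, only some of which chiefly make antithrombin-binding chains, Hs3st3b1 was detected with 5.15 ± 0.288 TPM (SD, n = 3). Hs3st1, the main enzyme for antithrombin binding, had 0.571 ± 0.0564 TPM (SD, n = 3) and Hs3st4 0.0194 TPM in the mean. Over the 12 lists, 53 of 102 genes in the table were detected, or 52.0%, against 55.4% of protein-coding symbols.

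**Figure D4:**
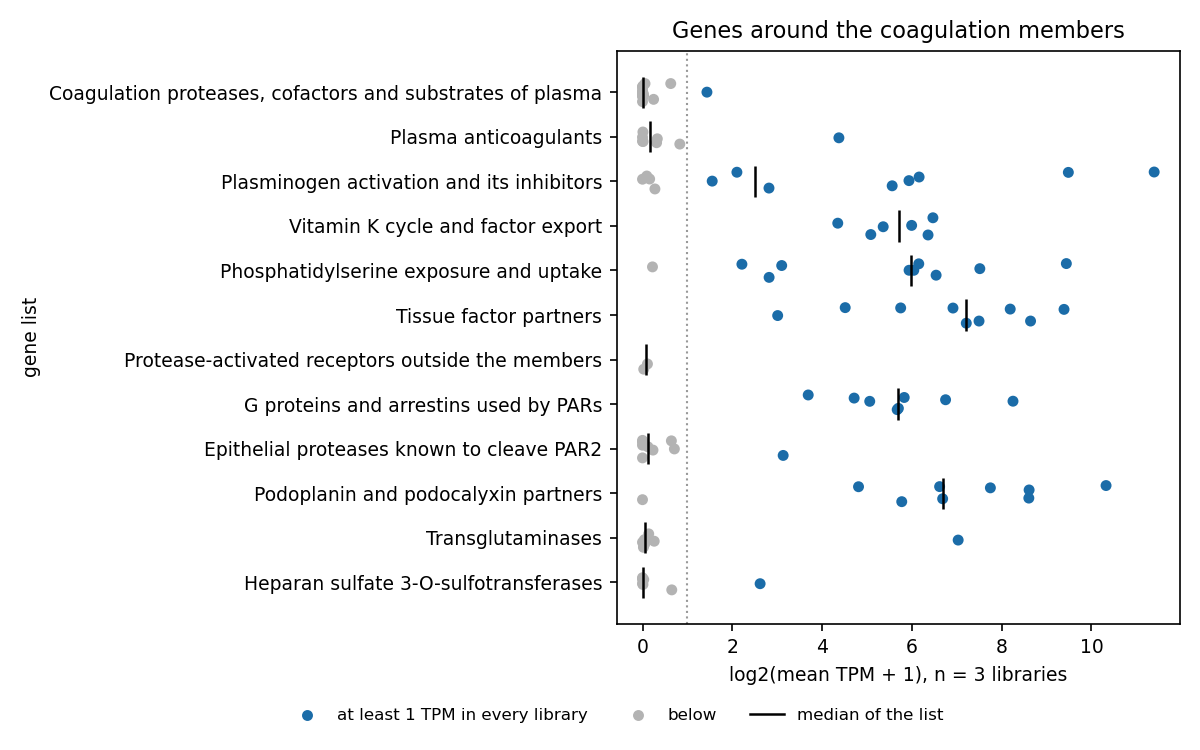
Mean level of each gene in 12 lists around the members, as log2(mean TPM + 1) on the horizontal axis, with 1 row per list, detected genes in blue, the others in grey and the median of each list as a black bar; the vertical scatter within a row has no meaning. Plasma coagulation factors and plasma anticoagulants crowd near 0, while partners of tissue factor and the vitamin K cycle lie wholly above the dotted level of 1 TPM.

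Several members are also textbook genes of other cell types, Thbd, Procr and Podxl of endothelium, Pdpn of lymphatic endothelium and fibroblasts, and F13a1 of macrophages and megakaryocytes. Of 9 blood vessel endothelial markers 1 was detected, Egfl7, with 23.8, 22.7 and 21.0 TPM, while Pecam1 stood at 0.359 ± 0.0963 TPM (SD, n = 3), Cldn5 was listed at 0 and 7 of the 9 had a mean below 0.1 TPM. The 9 summed to between 21.5 and 24.3 TPM, nearly all of it from Egfl7. Whether other cell types contributed to the levels of Procr or Podxl was not tested. Of 4 lymphatic endothelial markers none was detected, and their sum was at most 0.0400 TPM, with Flt4 and Prox1 the highest of them. Of 8 platelet and megakaryocyte markers 1 was detected, Itga2b, with 3.28, 2.20 and 3.68 TPM, and Ppbp stood at 0.756 ± 0.188 TPM (SD, n = 3). Of 7 macrophage and leukocyte markers 1 was detected, Cd68, a lysosomal protein gene, with 2.51, 1.54 and 3.24 TPM. Mrc1 stood at 0.0561 ± 0.0344 TPM, and Adgre1 and C1qa were listed at 0. None of 7 fibroblast markers was detected, with Col1a1 at 0.528 ± 0.171 TPM and Pdgfra at 0.392 ± 0.106 TPM (SD, n = 3). Of 4 mesothelial markers 1 was detected, Msln, an antigen that pancreatic carcinomas also carry, with 284, 279 and 309 TPM, and Lrrn4 stood at 0.121 ± 0.0610 TPM (SD, n = 3).

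The other detected members lie as follows on GRCm38, by GENCODE M21. Tfpi spans 84432855 to 84476775 on the minus strand of chromosome 2, Procr 155751117 to 155755471 on its plus strand, and Podxl 31519488 to 31563981 on the minus strand of chromosome 6. GENCODE lists all 10 members as protein-coding, and expression was given for whole genes, with no split into exons or UTRs.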

How the data were processed

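Per the file headers, the authors deposited kallisto TPM for each gene symbol. Versions come from the submitters' processing notes, which list GRCm38.p6 as the build, kallisto 0.44.0 and bcl2fastq 2.19. Which annotation release was used is not given in the sources used here, nor is the step from transcripts to genes. Kallisto splits reads shared between similar transcripts by a model, so values of near-identical genes are uncertain. Columns were assigned to samples through the library names in the labels, and 3 columns of a second sheet, whose names match no sample label, were not used.

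Each gene with a mean of at least 1 TPM was set against F3, Thbd or F2r, and in the same way against Tfpi and Podxl. The pairs planned for those last fits, Tfpi2 over Tfpi and Pdpn over Podxl, fell below the filter, and neighbours in the order of levels were not among the planned pairs. The difference in log2(TPM + 1) was taken per library and tested by limma (version 3.58.1, R 4.3.3; an intercept-only model, two-sided, Benjamini-Hochberg over all genes tested, threshold 0.05). Adding 1 TPM makes ratios to very low genes too small. Of the 10 members 6 passed the filter. The fit was tested on simulated data in which most genes sat at the level of F3. That setting differs from these data, so no conclusion is drawn from it. All genes in a fit share the noise of the gene they are set against, and bias of TPM between genes is not part of the error. The members and lists were chosen with earlier results of these data known. Named are all members, the 3 highest genes of each list, the 2 highest of each marker list and the 3 genes closest in level to F3; Cldn5, Adgre1, C1qa, Epcam, F7, Fga, Fgb, Fgg and Clec1b were named after their values were seen. Coordinates, transcript lengths and gene types came from GENCODE M21, matched by symbol for 90.6% of symbols. Python 3.11.15, pandas 2.3.3, scipy 1.17.1 and matplotlib 3.10.9 were used.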

Additional observations from a re-analysis of the deposited data

How the results depend on the processing

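Alternatives were pseudocounts of 0.1 and 5 TPM, no filter or a filter at a mean of 10 TPM, a prior spread that follows the mean level, TPM rescaled without 439 mitochondrial and ribosomal protein symbols, detection at 0.5 or 5 TPM or by the mean, and leaving out each replicate. Each of the 7 tested gene ratios had 9 alternatives, of which the detection rules are no part. Their direction could not change in these, because the same gene of each pair was the higher in every library. All but Podxl over F3 stayed past the threshold. That log2 ratio was 0.13 without the filter on low values, where it no longer passed (adjusted p = 0.101), and 0.12 to 0.15 when a replicate was left out, where it passed in none. Over its 9 alternatives the adjusted p ran between 0.0148 and 0.101. The filter at 10 TPM applies to the tested gene and not to the gene it is set against, so Thbd stayed in. The filters and the prior spread act only on the error and the adjusted p, so no ratio could move under them. The number of detected members and the total of detected genes over the 12 lists stayed within 1.5 times under every alternative. Single lists with 1 detected gene moved. At 5 TPM the lists of plasma coagulation factors, 3-O-sulfotransferases, platelet markers and macrophage markers had 0. At 0.5 TPM the lists of plasma anticoagulants, proteases for the F2rl1 receptor, 3-O-sulfotransferases and platelet markers had 2. Rescaling raised the detected members' levels by up to 1.37 times. The untested log2 ratios to genes near 0 followed the pseudocount by construction: at 0.1 TPM, at 5 TPM and after rescaling, Tfpi2 over Tfpi was -8.94, -3.43 and -6.09, and Pdpn over Podxl -9.41, -4.64 and -7.23, against -5.64 and -6.83. No paired analysis was possible because only 1 group was sequenced. Depth is unknown, so a gene listed at 0 cannot be told from one of very low level.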
